A study of Homo sapiens with 6 samples.

Results

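CDCP1, ST14, SRC, YES1, FYN, LYN and PRKCD are the genes of a transmembrane glycoprotein, a membrane protease that can cleave it, and kinases that act on or with it. They were taken by symbol from a deposited table of 35544 loci, and each of the 7 had 1 row that joined no other gene. PolyA RNA of the established human cell line SiHa, derived from a squamous carcinoma of the cervix, was sequenced 72 h after transfection with a plasmid carrying the circular RNA hsa_circ_0005358 (3 libraries, called circ_0005358) or with a vector plasmid (3 libraries, called vector), to look for mRNAs downstream of the circular RNA. Its name has 3 spellings in the labels, with unlike digits, and they were read as 1 RNA. Nothing in the labels ties the libraries to separate cultures, and the p-values therefore reflect spread among these 6 libraries that may be technical. The circular RNA itself was not analysed here, so no value in this section checks that its level differed between the plasmids.

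CDCP1 is a single-pass membrane protein of epithelial cells with CUB domains outside and tyrosines inside. When SRC family kinases phosphorylate these tyrosines, CDCP1 binds protein kinase C delta, the product of PRKCD, and this complex is known for a part in loss of anchorage and in tumour cell invasion. Trypsin-like serine proteases, among them matriptase, the product of ST14, and plasmin, can cut CDCP1 in its extracellular part. SRC, YES1 and FYN are the broadly expressed SRC family kinases, and LYN is best known from blood cells but is also expressed in epithelia. The title of the study names CDCP1 mRNA and the RNA-binding protein PTBP1, which binds pyrimidine-rich RNA.

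Values are FPKM, which scale fragments to the length of the transcript and the size of the library, so levels of different genes can be set side by side. Loci with at least 1 FPKM in at least 3 libraries were tested with limma on log2(FPKM + 1), a scale that understates the change of low genes, and a locus was called at a Benjamini-Hochberg adjusted p under 0.05. Of 10295 tested loci 11.4% were called, 6.41% as higher and 4.96% as lower with circ_0005358, and groups did not overlap in 35.8%. The value of 1 fragment implied depths, in units of 1e6 fragments, of 21.5, 16.3 and 22.4 for circ_0005358 replicates 1 to 3 and of 22.5, 23.0 and 22.8 for vector replicates 1 to 3. Vector replicate 3 stood apart with 27803 loci above 0, against 23227 to 23834 in the other 5 libraries, and circ_0005358 replicate 2 had the lowest depth. The first principal component (33.8% of the variance) separated the groups, and the second (18.3%) set replicate 3 of each group apart from the other 4 libraries. Summed over the 6 epithelial markers with a row of their own, levels were 616 to 693 FPKM with circ_0005358 and 1251 to 1321 FPKM with vector, mostly from the keratin genes KRT7, KRT17, KRT8 and KRT18. EPCAM was between 1.04 and 2.52 FPKM and TP63 between 0.114 and 0.254 FPKM, so the identity of an epithelial line rested on keratins.

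The promoter of CDCP1, which fell, and that of PRKCD, which rose, are shown from RefSeq (GRCh38.p14) to set the start regions of 2 genes on chromosome 3 that moved in opposite directions beside each other. Each runs from 250 bases before to 50 after the RefSeq start, 5′ to 3′, and capitals mark GC boxes (GGGCGG), E-boxes of the kind that SNAI and ZEB repressors bind (CACCTG) and AP-1 sites (TGANTCA), each searched on both strands.
CDCP1, chr3:45146329-45146628, minus strand: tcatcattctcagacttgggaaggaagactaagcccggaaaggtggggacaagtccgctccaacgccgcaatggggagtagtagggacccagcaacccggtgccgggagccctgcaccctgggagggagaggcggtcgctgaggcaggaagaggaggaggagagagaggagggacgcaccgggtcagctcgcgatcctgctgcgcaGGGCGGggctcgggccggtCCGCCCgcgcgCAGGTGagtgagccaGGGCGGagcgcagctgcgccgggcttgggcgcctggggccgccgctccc
PRKCD, chr3:53160959-53161258, plus strand: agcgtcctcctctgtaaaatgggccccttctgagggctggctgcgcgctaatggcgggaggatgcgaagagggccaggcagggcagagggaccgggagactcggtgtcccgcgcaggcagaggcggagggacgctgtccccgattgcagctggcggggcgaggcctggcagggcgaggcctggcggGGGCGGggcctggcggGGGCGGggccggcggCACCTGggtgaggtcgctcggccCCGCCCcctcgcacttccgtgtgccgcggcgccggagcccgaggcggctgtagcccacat
Both windows held 3 GC boxes, 1 CACCTG and no AP-1 site. Of 35116 promoters of this length 45.0% held a GC box, 20.6% a CACCTG and 7.71% an AP-1 site. GC content was 70.3% for CDCP1 and 75.0% for PRKCD, with a median of 58.7% over all promoters. Counts of the marked motifs were thus the same in these 2 windows. A pair of genes picked for opposite directions cannot show whether a motif goes with direction. Of the 7 genes, 4 matched the promoter table: CDCP1, YES1, FYN and PRKCD.

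The CDCP1 transcript was searched for pyrimidine-rich letters because the title of the study names PTBP1. Its longest coding transcript in GENCODE 29 has 6006 bases, of which 3363 lie after the coding part. It held TCTT 21 times, 16 of them after the coding part, or 3.50 per kb. The median over the longest coding transcripts of 8647 tested genes was 5.16 per kb, and 77.2% of them were at least as dense. CTCTCT occurred 2 times, and 45.3% of the transcripts were at least as dense in it. These densities are over the whole transcript and say nothing of single stretches within it. LYN, which rose, had TCTT 4.13 and CTCTCT 1.21 times per kb, and 5.34% of the transcripts were at least as dense in CTCTCT. These are matches of letters and not measured binding.

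CDCP1 and ST14 were lower in every circ_0005358 library than in any vector library, LYN and PRKCD were higher in every one, and SRC and YES1 did not pass the test. FYN never reached 1 FPKM and was not tested. Of the 6 tested genes 2 were thus called as higher, beside 6.41% of all tested loci, and 2 as lower, beside 4.96%. ST14, called as lower, passed the filter only through the vector libraries. Groups did not overlap for 6 of the 7, all but SRC, beside the 35.8% of all tested loci given above.

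**Figure D1:**
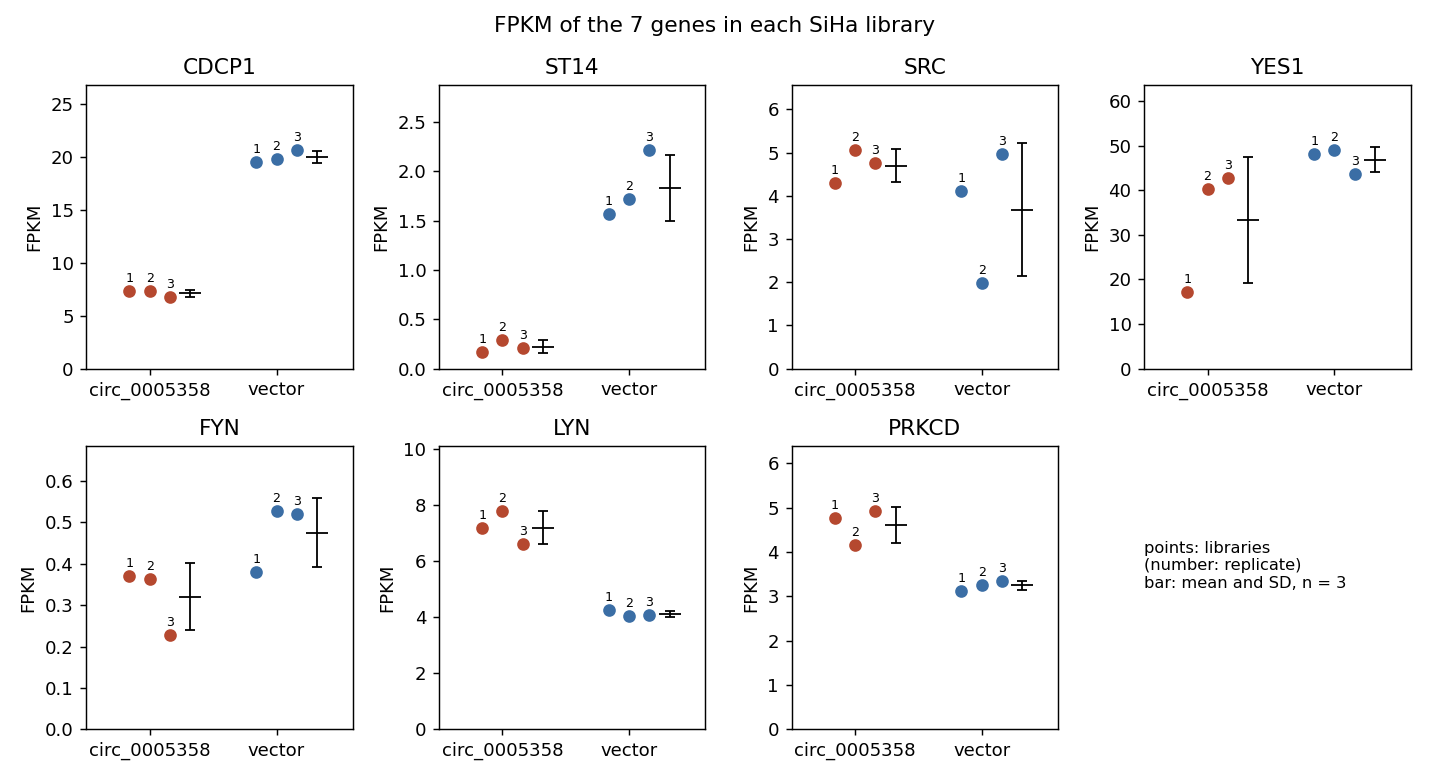
FPKM (y axis, from 0, own scale per panel) of CDCP1, ST14, SRC, YES1, FYN, LYN and PRKCD in the 3 circ_0005358 libraries (left, red) and the 3 vector libraries (right, blue), numbered by replicate, with the mean and SD beside them. CDCP1 and ST14 lie lower and LYN and PRKCD higher with circ_0005358, while YES1 has 1 low circ_0005358 library at 17.1 FPKM and SRC 1 low vector library at 1.98 FPKM.

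CDCP1 stood at 7.32, 7.32 and 6.73 FPKM in circ_0005358 replicates 1 to 3, against 19.5, 19.8 and 20.6 FPKM in vector replicates 1 to 3. The ranges were far apart. Its log2 fold change was -1.37 (95% interval -1.51 to -1.22, limma adjusted p = 0.000409). By exact permutation, two-sided, p was 0.1, the smallest that 3 against 3 libraries allow. Among the tested loci CDCP1 ranked 23 by p and 88 by the size of the fall. Over all libraries, 76.8% of tested loci had a lower mean than CDCP1. In bulk RNA, fewer cells that express a gene and less RNA per cell cannot be told apart. The summed epithelial markers given above were lower with circ_0005358 as well, and their part in the CDCP1 value was not tested. The values corresponded to about 719 to 946 fragments per library with circ_0005358 and 2635 to 2822 with vector, taking the longest coding transcript as the length. In GENCODE 29 (GRCh38), CDCP1 (ENSG00000163814) spans bases 45082278 to 45146422 of chromosome 3, minus strand.

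ST14 stood at 0.167, 0.293 and 0.213 FPKM in circ_0005358 replicates 1 to 3, against 1.57, 1.72 and 2.21 FPKM in vector replicates 1 to 3. It was the lower of the pair in both groups, at 0.224 ± 0.064 FPKM with circ_0005358 and 1.84 ± 0.335 FPKM with vector (SD, n = 3 each), and its ratio of means, 0.122, was further from 1 than that of CDCP1, 0.357. On the log2(FPKM + 1) scale its change of -1.21 (95% interval -1.47 to -0.94, limma adjusted p = 0.00261) was nevertheless the smaller one, because the added 1 weighs on low values. With an added 0.1 the value was -2.58 for ST14 and -1.47 for CDCP1. ST14 passed the filter only through the 3 vector libraries, and a gene that passes in this way has to be lower with circ_0005358. Only about 13 to 17 fragments stood behind each circ_0005358 value, against 125 to 179 behind each vector value. In GENCODE 29 (GRCh38), ST14 (ENSG00000149418) spans bases 130159562 to 130210376 of chromosome 11, plus strand.

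Among other genes of the matriptase and plasmin system, SPINT1 and PLAUR fell. Of 12 listed genes 5 were tested, 0 rose and 2 fell, beside 6.41% and 4.96% of all tested loci. The median log2 fold change of the tested genes was -0.37, against 0.02 over all tested loci. SPINT1, which encodes a Kunitz inhibitor of matriptase, stood at 1.95, 2.67 and 2.40 FPKM with circ_0005358 and at 3.69, 4.74 and 4.22 FPKM with vector. Its log2 fold change was -0.64 (limma adjusted p = 0.0277). The call was lost without circ_0005358 replicates 1 or 3 (adjusted p = 0.0629 and 0.0836) and without vector replicates 2 or 3 (adjusted p = 0.0836 and 0.0839). PLAUR, the urokinase receptor gene, stood at 5.21 ± 0.58 FPKM with circ_0005358 and 6.99 ± 0.108 FPKM with vector (SD, n = 3 each; log2 fold change -0.37, limma adjusted p = 0.0473). It was called without circ_0005358 replicate 3 (adjusted p = 0.0357) but not without any other library (adjusted p from 0.1 to 0.131).

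Other parts of the protease system were near 0. PLAU, which encodes urokinase itself, was between 0.0369 and 0.242 FPKM in all 6 libraries. PLG, the plasminogen gene, PRSS8, the gene of the matriptase partner prostasin, and the related protease gene HPN lay below 0.25 FPKM in every library. SPINT2, the second Kunitz inhibitor, has a row that joins other genes and was not called (log2 fold change -0.23, limma adjusted p = 0.508). F2RL1, named here after its values were seen, encodes a receptor that matriptase can cleave. It stood at 5.17, 2.55 and 6.64 FPKM with circ_0005358 and at 1.71, 1.33 and 1.18 FPKM with vector, groups that did not overlap, and it missed the threshold (log2 fold change 1.20, limma adjusted p = 0.06). Across leave-one-out fits its adjusted p ran from 0.0131 without circ_0005358 replicate 2 to 0.159, and it was also called with library weights (adjusted p = 0.0348).

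LYN was the SRC family gene that rose. It stood at 7.17, 7.77 and 6.61 FPKM in circ_0005358 replicates 1 to 3, against 4.25, 4.03 and 4.07 FPKM in vector replicates 1 to 3. The vector values lay close together and below every circ_0005358 value. The log2 fold change was 0.68 (95% interval 0.50 to 0.86, limma adjusted p = 0.0051, exact permutation p = 0.1). It kept its call without any single library (adjusted p from 0.0138 to 0.0281), and lost it without both vector replicate 3 and circ_0005358 replicate 2, which stood apart (log2 fold change 0.62, adjusted p = 0.0573). LYN (ENSG00000254087) spans GRCh38 bases 55879813 to 56014168 of chromosome 8, plus strand. LYN is also a gene of white blood cells. Summed over the 9 leukocyte markers with a row of their own, levels were 1.65 to 16.5 FPKM with circ_0005358 and 10.5 to 13.5 FPKM with vector, most of it CD14 (1.33 to 16.2 FPKM). None of the 9 was at 0 in all libraries. PTPRC, which marks all leukocytes, reached at most 0.0605 FPKM.

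YES1 was the most abundant of the 4 SRC family genes in every library, and its change rested on 1 library. It stood at 17.1, 40.2 and 42.8 FPKM in circ_0005358 replicates 1 to 3, against 48.0, 48.9 and 43.6 FPKM in vector replicates 1 to 3. All circ_0005358 values were below all vector values, but replicate 1 was at 42.6% of the next lowest library. The log2 fold change was -0.58 (95% interval -1.47 to 0.31, limma adjusted p = 0.362) and it was -0.17 without circ_0005358 replicate 1 (adjusted p = 0.255). The interval includes both no change and a fall larger than that of CDCP1. YES1P1, a pseudogene with its own row, cannot be told apart from YES1 where their reads are alike. YES1 (ENSG00000176105) spans GRCh38 bases 721588 to 812546 of chromosome 18, minus strand.

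SRC did not pass the test and was also marked by 1 library. It stood at 4.29, 5.05 and 4.75 FPKM in circ_0005358 replicates 1 to 3, against 4.11, 1.98 and 4.96 FPKM in vector replicates 1 to 3. Vector replicate 2 was at 48.3% of the next lowest library, and the other 5 values overlapped. The log2 fold change was 0.34 (95% interval -0.33 to 1.01, limma adjusted p = 0.477, exact permutation p = 0.4), and 0.04 without vector replicate 2 (adjusted p = 0.848). A library at under 50% of the next lowest was seen in 588 tested loci, 5.71% of them, with 90 to 106 loci per library. CBL, the gene of a ubiquitin ligase that acts on these kinases, showed the same form, with 3.42 FPKM in circ_0005358 replicate 1 and 12.5 to 14.6 FPKM elsewhere. In neither case did the neighbourhood drop: the loci around YES1 had a median deviation of 0 in circ_0005358 replicate 1, and those around SRC one of 0.02 in vector replicate 2, in log2 units from the median of the libraries. SRC (ENSG00000197122) spans GRCh38 bases 37344685 to 37406050 of chromosome 20, plus strand.

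FYN stood at 0.371, 0.364 and 0.228 FPKM in circ_0005358 replicates 1 to 3, against 0.379, 0.527 and 0.520 FPKM in vector replicates 1 to 3. The groups did not overlap, but circ_0005358 replicate 1 and vector replicate 1 differed by under 0.01 FPKM, and all values rested on about 19 to 44 fragments. The exact permutation p was 0.1, and with no filter on low values the limma adjusted p was 0.666 (log2 fold change -0.16). FYN (ENSG00000010810) spans GRCh38 bases 111660332 to 111873452 of chromosome 6, minus strand.

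The order of the 4 kinases was YES1, LYN, SRC and FYN in every circ_0005358 library. With vector, YES1 was highest and FYN lowest in each library. LYN was above SRC in vector replicates 1 (4.25 against 4.11 FPKM) and 2 (4.03 against 1.98 FPKM). In vector replicate 3 it was below SRC (4.07 against 4.96 FPKM). LYN made up 24.8%, 14.6% and 12.1% of the summed FPKM of the 4 genes in circ_0005358 replicates 1 to 3, against 7.48%, 7.27% and 7.65% in vector replicates 1 to 3. The share in circ_0005358 replicate 1 goes with its low YES1, since the sum was 28.9 FPKM there and 53.1 to 56.8 FPKM in the other libraries. FPKM of CDCP1 over FPKM of LYN was 1.02, 0.943 and 1.02 in circ_0005358 replicates 1 to 3, against 4.59, 4.91 and 5.06 in vector replicates 1 to 3. The CDCP1 mRNA was thus about level with LYN in the first group and severalfold above it in the second.

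**Figure D2:**
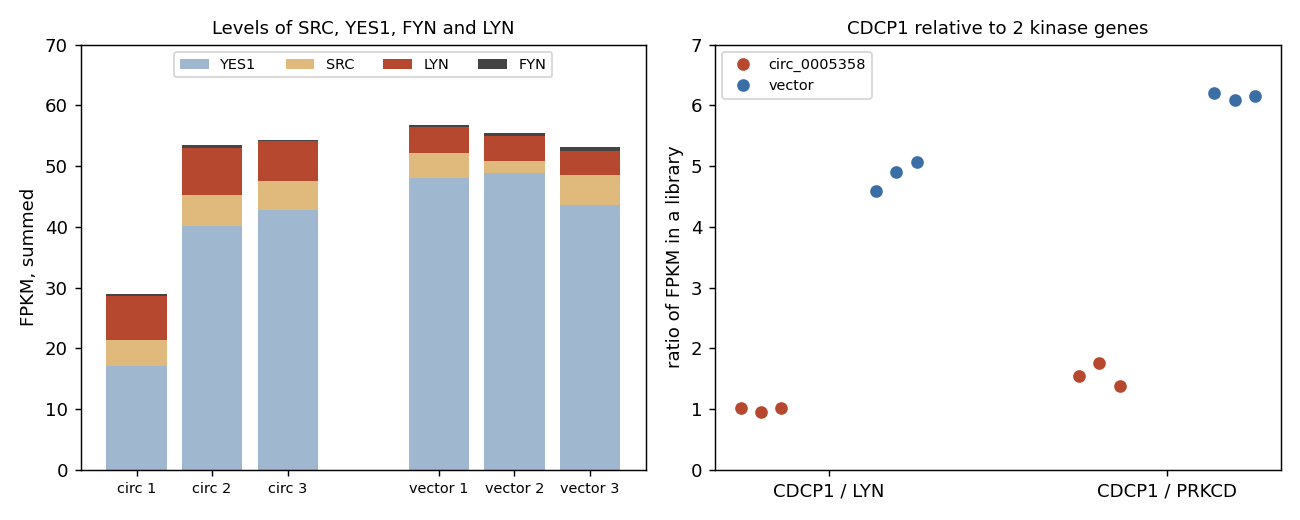
Left, FPKM of YES1, SRC, LYN and FYN stacked per library (y axis, from 0; circ is circ_0005358). Right, the ratio of CDCP1 to LYN and to PRKCD in each library, by group. The stack of circ_0005358 replicate 1 ends at 28.9 FPKM because of its low YES1, and both ratios are lower in all 3 circ_0005358 libraries than in the vector libraries.

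Of the 5 other SRC family kinases and relatives, only FRK was tested. Thus 0 rose, beside 6.41% of all tested loci, and 1 fell, beside 4.96%, namely FRK. This gene of a SRC-related epithelial kinase stood at 0.642 ± 0.0366 FPKM with circ_0005358 and 1.22 ± 0.128 FPKM with vector (SD, n = 3 each; log2 fold change -0.43, limma adjusted p = 0.0189). It passed the filter only through the vector libraries, and it was called without vector replicate 3 (adjusted p = 0.0323) but not without any other library (adjusted p from 0.0518 to 0.074). Of 8 regulators of SRC family kinases 6 were tested, 0 rose and 0 fell, beside the same shares of all tested loci. The median log2 fold change of these regulators was 0.04. PTPN11, a phosphatase gene, stood at 48.9, 46.1 and 27.3 FPKM with circ_0005358 and at 28.5, 25.3 and 48.3 FPKM with vector. PTPN1, another phosphatase gene, averaged 28.3 ± 0.639 FPKM with circ_0005358 and 27.5 ± 8.26 FPKM with vector (SD, n = 3 each). CSK, the kinase gene that holds the family inactive, has a row that joins other genes and was not called (log2 fold change 0.32, limma adjusted p = 0.0668).

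Of 12 substrates and adaptors of SRC family kinases 11 were tested, 0 rose and EPS8 alone fell, beside 6.41% and 4.96% of all tested loci. The median log2 fold change of this list was 0.04. EPS8, which encodes an actin regulator phosphorylated downstream of receptor tyrosine kinases, stood at 3.79, 3.59 and 3.75 FPKM with circ_0005358 and at 6.89, 7.22 and 6.88 FPKM with vector. Its log2 fold change was -0.77 (limma adjusted p = 0.00149), and it was called without each library in turn (adjusted p from 0.00837 to 0.0113). The focal adhesion genes PTK2, PXN and BCAR1 (its row joins a second gene) had log2 fold changes of -0.15, -0.49 and 0.25 and were not called (limma adjusted p = 0.619, 0.198 and 0.193).

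PRKCD, the gene of the kinase that docks on phosphorylated CDCP1, rose. It stood at 4.76, 4.15 and 4.92 FPKM in circ_0005358 replicates 1 to 3, against 3.13, 3.26 and 3.35 FPKM in vector replicates 1 to 3. Every circ_0005358 value was above every vector value, and the vector libraries were the closer to each other. The log2 fold change was 0.40 (95% interval 0.21 to 0.59, limma adjusted p = 0.0291, exact permutation p = 0.1). The call was kept without circ_0005358 replicate 2 (adjusted p = 0.0257) and lost without circ_0005358 replicates 1 or 3 (adjusted p = 0.0836 and 0.0897) and without vector replicates 1, 2 or 3 (adjusted p = 0.0952, 0.0918 and 0.0741). Without the filter the call was lost too (limma adjusted p = 0.0871), as it was without both vector replicate 3 and circ_0005358 replicate 2 (adjusted p = 0.069). PRKCD (ENSG00000163932) spans GRCh38 bases 53156009 to 53192717 of chromosome 3, plus strand. FPKM of CDCP1 over FPKM of PRKCD was 1.54, 1.76 and 1.37 in circ_0005358 replicates 1 to 3, against 6.21, 6.08 and 6.15 in vector replicates 1 to 3.

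Of 12 other genes of the protein kinase C and D group 7 were tested. Of these 0 rose and 1 fell, beside 6.41% and 4.96% of all tested loci, with a median log2 fold change of -0.12. The gene that fell was MARCKS, which encodes a membrane-bound substrate of protein kinase C, at 27.6 ± 1.45 FPKM with circ_0005358 and 34.4 ± 1.73 FPKM with vector (SD, n = 3 each; log2 fold change -0.31, limma adjusted p = 0.0399). This call was lost without each library in turn (adjusted p from 0.052 to 0.116). PRKCI, the most abundant kinase gene of this list, stood at 28.9 ± 0.271 FPKM with circ_0005358 and 31.6 ± 0.606 FPKM with vector (SD, n = 3 each; limma adjusted p = 0.152).

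**Figure D3:**
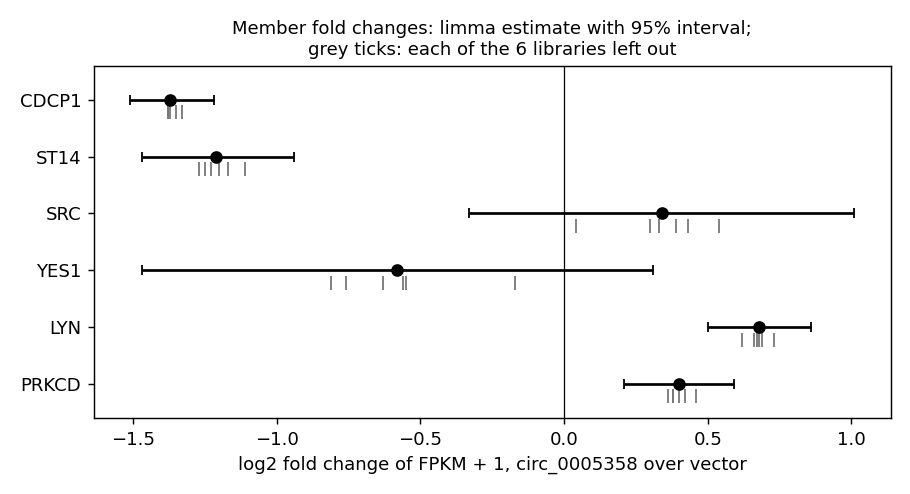
Log2 fold changes of FPKM + 1, circ_0005358 over vector (x axis), of the 6 tested genes with limma's 95% interval, and as grey ticks the values with each of the 6 libraries left out. CDCP1, ST14, LYN and PRKCD lie clear of 0 with narrow intervals, while the ticks of SRC run from 0.04 to 0.54 and those of YES1 from -0.81 to -0.17. The filter fixed the side of ST14, and PRKCD lost its call without each library except circ_0005358 replicate 2.

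Of 11 listed genes of surface proteins that have been linked to CDCP1, 9 were tested, 1 rose and 4 fell, beside 6.41% and 4.96% of all tested loci. Their median log2 fold change was -0.01, and 2 to 3 of the 9 were called with each library left out in turn. CDH3, the P-cadherin gene, stood at 0.701, 0.818 and 0.701 FPKM with circ_0005358 and at 11.3, 9.97 and 9.49 FPKM with vector. Its log2 fold change of -2.69 (limma adjusted p = 0.000163) was larger than that of CDCP1. CDH3 passed the filter only through the vector libraries, which fixed its direction. With no filter it was called as well (log2 fold change -2.69, limma adjusted p = 0.000375). SDC4, a syndecan gene, stood at 73.3, 71.2 and 75.5 FPKM with circ_0005358 and at 123, 120.0 and 116 FPKM with vector (log2 fold change -0.70, limma adjusted p = 0.0013). CDH3 and SDC4 were called without each library in turn (adjusted p from 0.00146 to 0.00246 and from 0.0073 to 0.0107).

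The other calls among these surface proteins were nearer the threshold. MMP14, a membrane metalloprotease gene, averaged 28.7 ± 1.72 FPKM with circ_0005358 and 37.7 ± 2.25 FPKM with vector (SD, n = 3 each; log2 fold change -0.38, limma adjusted p = 0.0292), and the call was lost without each library in turn (adjusted p from 0.064 to 0.0817). ITGB1, the beta-1 integrin gene, whose row joins a second gene, averaged 41.5 ± 4.09 FPKM with circ_0005358 and 54.6 ± 0.608 FPKM with vector (SD, n = 3 each; log2 fold change -0.39, limma adjusted p = 0.0359). ITGB1 was called without circ_0005358 replicate 3 (adjusted p = 0.0194) but not without any other library (adjusted p from 0.0845 to 0.108). SDC1, the other syndecan gene and the one that rose, was named after its values were seen. It averaged 7.07 ± 0.212 FPKM with circ_0005358 and 5.19 ± 0.542 FPKM with vector (SD, n = 3 each; log2 fold change 0.39, limma adjusted p = 0.0386), and was called without vector replicate 3 (adjusted p = 0.0288) but not without any other library (adjusted p from 0.0838 to 0.122).

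Receptor genes of this list did not pass the test. EGFR varied more within groups than between them, at 12.6, 5.35 and 12.3 FPKM with circ_0005358 and 4.38, 5.77 and 17.0 FPKM with vector. The log2 fold changes of ERBB2 and MET were 0.32 and -0.01 (limma adjusted p = 0.0544 and 0.986). CD6, a lymphocyte gene whose product binds CDCP1, stayed at or below 0.112 FPKM in all libraries. The 3 hypoxia factor genes, listed because CDCP1 is known as a hypoxia-induced gene, had 0 calls in either direction, beside 11.4% of all tested loci. Their median log2 fold change was -0.07. The list holds mRNAs of the factors alone, and hypoxia signalling was not tested. HIF1A, in a row that joins other genes, averaged 105 ± 3.45 FPKM with circ_0005358 and 111 ± 3.81 FPKM with vector, and EPAS1 33.1 ± 2.73 FPKM with circ_0005358 and 35.7 ± 1.84 FPKM with vector (SD, n = 3 each).

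**Figure D4:**
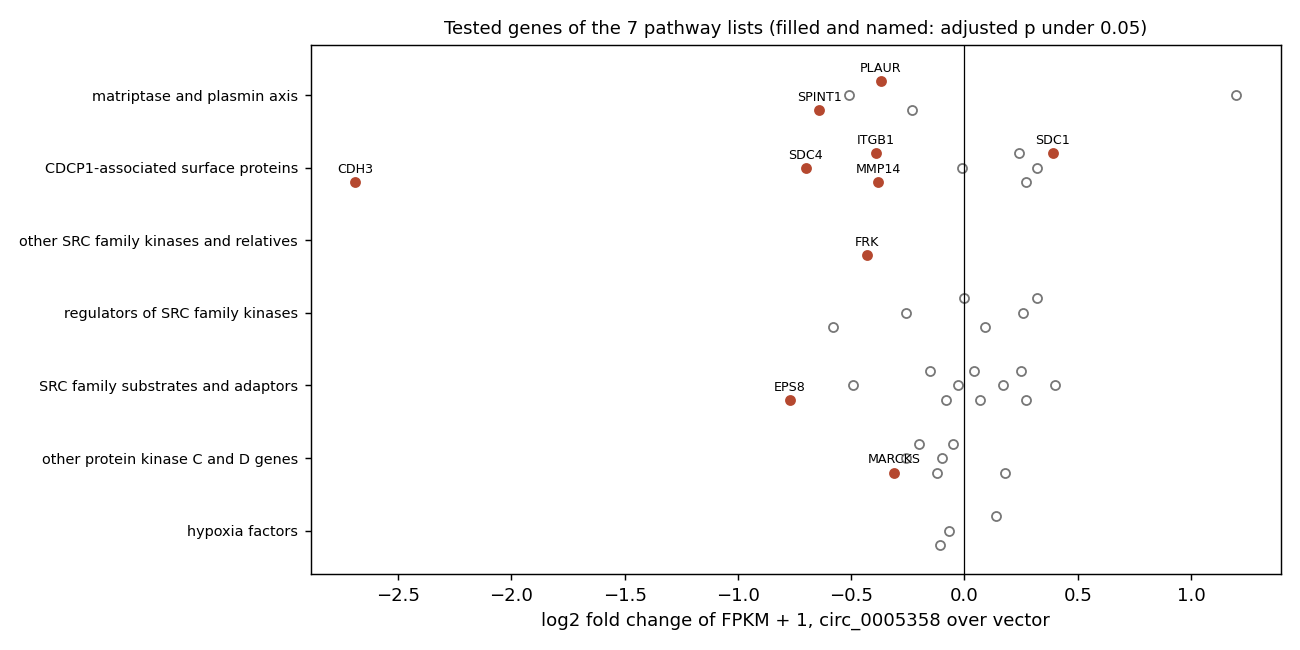
Log2 fold changes of FPKM + 1, circ_0005358 over vector (x axis), of the tested genes of the 7 pathway lists (rows, with points staggered for legibility). Filled and named points passed an adjusted p of 0.05. CDH3 at -2.69, which passed the filter only through the vector libraries, lies furthest from 0. SDC1 is the only filled point on the right.

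Over the 7 lists together 42 of 63 genes were tested, 1 rose and 9 fell. This is 23.8% called, beside the 11.4% of all tested loci, with a median log2 fold change of -0.07. The lists were chosen with earlier results of these data known, so the share is no independent support. CDH3 and FRK, among those that fell, passed the filter only through the vector libraries. Of the called genes only CDH3, SDC4 and EPS8 were called without each library in turn. The 21 genes below the filter were highest in vector replicate 3 in 18 cases, the library with the most loci above 0.

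Neighbours on the chromosome had medians near 0 around CDCP1 and ST14. Over all tested loci 6.41% were called as higher and 4.96% as lower, the shares to set beside the counts below. Of the 50 tested loci nearest to CDCP1, 25 on each side, 2 were called as higher and 1 as lower, their median log2 fold change was -0.01, and 0 had a value as low as CDCP1. Of the 32 near ST14, which lies towards the end of its chromosome, 1 was called as higher and 2 as lower, with a median of -0.02, and 0 had a value as low as ST14. The 50 loci around PRKCD had a median of -0.07, and 3 of them had a higher value than PRKCD. The directly following tested locus, TKT, a pentose phosphate enzyme gene, was among its called neighbours with a log2 fold change of 0.53. Around LYN the picture differed, with 10 of 50 loci called as higher and 2 as lower and a median of 0.14. These loci start at bases 42152946 to 70635318 of chromosome 8, a wider stretch than bases 39406689 to 48517684 of chromosome 3 around CDCP1. The nearest to LYN, TMEM68 and TGS1 before it and RPS20 and CHCHD7 after it, were not called (log2 fold changes -0.02, -0.05, -0.02 and -0.32). Of these 50 loci 4 had a higher value than LYN, with CEBPD at 4.94. The part of this neighbourhood in the LYN value was not tested.

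**Figure D5:**
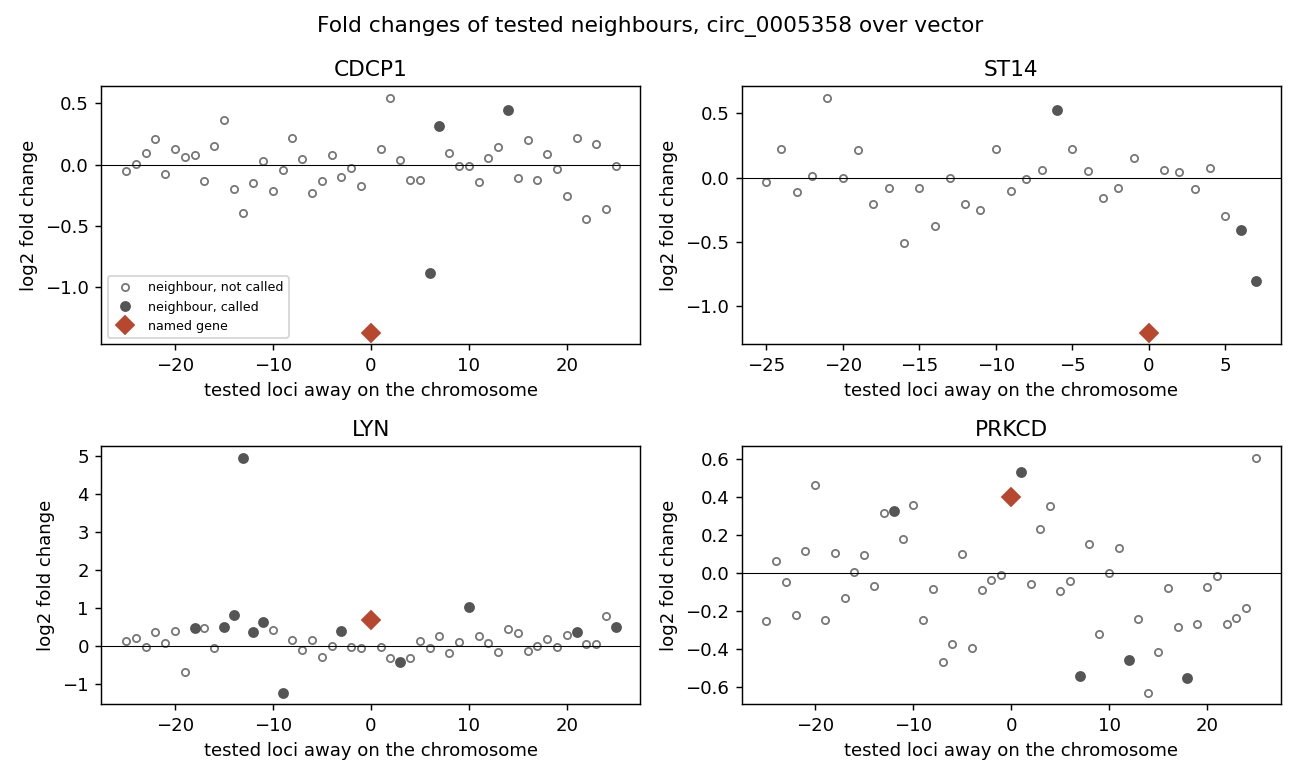
Log2 fold changes of FPKM + 1, circ_0005358 over vector (y axis, own scale per panel), of the tested loci on either side of CDCP1, ST14, LYN and PRKCD by their order on the chromosome (x axis), with called neighbours filled and the named gene as a diamond. CDCP1 and ST14 lie below all their neighbours. Around LYN 10 of the 12 called neighbours are higher, beside 660 of the 1171 called among all tested loci.

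The genes most like CDCP1 over the 6 libraries were MYO1D, an unconventional myosin gene, PCDH7, a protocadherin gene, TENM3, a teneurin gene, GJA5, a connexin gene, and STC2, which encodes a secreted stanniocalcin. Likeness was the root mean square difference between centred log2(FPKM + 1) profiles over 9288 tested loci with 1 name, and it was 0.0446, 0.0456, 0.0625, 0.0636 and 0.0752 for these genes. Their own log2 fold changes ran from -1.45 for MYO1D to -1.27 for STC2, near that of CDCP1 by the way they were picked. MYO1D, the closest, averaged 2.48 FPKM with circ_0005358 and 8.51 FPKM with vector. For ST14 the closest were ZNF678, STC2 and LINC01164 (0.0798, 0.0806 and 0.082), so STC2 stood near both. For LYN they were CBS, an enzyme gene of cysteine synthesis, TSPAN4 and SYTL4 (0.0472, 0.0509 and 0.0511), and for PRKCD CSPP1, ATP5C1, an ATP synthase subunit gene, and SRSF5, a splicing factor gene (0.0269, 0.0358 and 0.0382). All these profiles share the same 6 libraries and the same contrast, and the likeness is a description. PCDH7, TENM3, ZNF678 and LINC01164 averaged 0.555, 0.358, 0.159 and 0.0676 FPKM with circ_0005358, under the 1 FPKM of the filter. The vector libraries carried these genes over it, which fixed their direction. SYTL4 averaged 0.562 FPKM with vector and passed through the circ_0005358 libraries instead.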

How the data were processed

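PolyA RNA of 6 SiHa libraries was analysed, 3 per plasmid. The authors deposited 1 table of FPKM values. Reads were handled with Trimmomatic and HISAT2 on hg19, per the submitters' processing notes. Which program made the FPKM values, and on which annotation, is not given in the sources used here. Coordinates follow GENCODE 29 on GRCh38, which is another build than that of the alignment.

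A symbol took the row with the highest mean among rows that carry it. Loci with at least 1 FPKM in at least 3 libraries (10295) were fitted with limma 3.58.1 in R 4.3.3 on log2(FPKM + 1), two-sided and with its trend option, and Benjamini-Hochberg adjusted over all of them. Exact permutation tests used scipy 1.17.1. The fit was tested on simulated data. Depth was implied from the most frequent low value of FPKM times length on single-transcript loci, and fragment numbers are estimates that carry no counting interval.

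The 7 genes and the 7 pathway lists were chosen with earlier results of these data known. Genes named from a list are its called members, up to 4 with the smallest adjusted p, or else the 2 with the highest mean; others named were added for their role or after their values were seen. Marker lists for epithelial cells, leukocytes, fibroblasts and endothelium were summed per library over rows of a single gene. Fibroblast markers summed to 2.67 to 3.15 FPKM with circ_0005358 and 7.10 to 10.7 FPKM with vector, mostly LUM, and endothelial markers to 0.347 to 0.372 FPKM with circ_0005358 and 0.268 to 0.692 FPKM with vector.

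Alternatives were pseudocounts of 0.1 and 0.5, no filter or at least 5 FPKM in 3 libraries, 2 scalings, no variance trend, library weights, a replicate block, summed rows, each library left out on the same loci, and, chosen after the data were seen, vector replicate 3 and circ_0005358 replicate 2 left out together and loci with 1 name alone. A gene of the pathway lists and a stretch of the CDCP1 transcript are not reported here.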

Additional observations from a re-analysis of the deposited data

How the results depend on the processing

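CDCP1 kept its direction and call under every alternative that tested it, with log2 fold changes from -1.47 to -1.33 and adjusted p of at most 0.0276. ST14 was called in each fit that tested it (-2.58 to -1.11, adjusted p of at most 0.0393), but the filter fixed its direction in all but the fit with no filter (-1.21, adjusted p = 0.011). SRC and YES1 were called under none. ST14, SRC and PRKCD could not be fitted with at least 5 FPKM in 3 libraries, nor FRK, and FYN had values only where no model across loci or no filter was used.

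LYN lost its call with the replicate block (0.68, adjusted p = 0.0576) and without both libraries that stood apart (0.62, adjusted p = 0.0573), and PRKCD with the block (0.40, adjusted p = 0.112), with no filter (0.40, adjusted p = 0.0871) and without both libraries (0.48, adjusted p = 0.069). With each library left out in turn PRKCD ran from 0.36 to 0.46. PTPN1, not called in any fit, went to -0.18 without vector replicate 3 and -0.20 without both libraries, and ran up to 0.23 without vector replicate 2. FYN moved to -0.46 and -0.25 at pseudocounts of 0.1 and 0.5.

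Same-numbered libraries deviated together only weakly, at correlations of 0.0644, 0.0481 and 0.0781, although each correlated best with its own number. Libraries of unlike number gave -0.0537 to -0.0106. On the second principal component, replicate 3 of each group lay together, at -22.7 with circ_0005358 and -21 with vector. These values do not settle whether replicate numbers pair the libraries, and the main fit used no pairing. The replicate block gave 259 called loci in place of 1171. Calls were 660 higher and 511 lower, but 539 higher and 573 lower with libraries rescaled to the same sum. The count was 591 with no filter, 378 without both libraries that stood apart, and 582 to 802 with each library left out.

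Calls in the matriptase and plasmin list numbered 0 with no filter, 1 at 5 FPKM, 1 with the block, 1 without both libraries and 0 to 2 with each library left out, in place of 2. The call without both libraries was F2RL1, as higher (limma adjusted p = 0.0496). With library weights, and without circ_0005358 replicate 2, the 2 calls were 1 higher and 1 lower. Among CDCP1-associated surface proteins calls numbered 2 with no filter, with the block and without both libraries. They numbered 2 to 3 with each library left out, in place of 5. The single calls of the other SRC family kinases and of the protein kinase C and D list became 0 with no filter, with the block and without both libraries, and were 0 to 1 and 0 with each library left out. Among SRC family substrates the count was 2 without both libraries and 1 to 2 with each library left out, in place of 1. The cause of these changes was not tested.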
